A study of Canis lupus familiaris with 12 samples.

Results

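MicroRNAs (miRNAs) of the HOX gene clusters were compared between CHMm, a canine mammary gland tumor line derived from a metastasis, and CHMmTAM, its tamoxifen (TAM)-resistant derivative. The members were the 4 entries cfa-miR-10a, cfa-miR-10b, cfa-miR-196a and cfa-miR-196b among the 453 canine miRNAs listed in the count table, and the rule that picks them uses names and no measured value. All 4 were listed and all 4 had enough counts to be tested. Each line had 3 small RNA libraries. Both lines were grown in phenol-red-free DMEM with charcoal-stripped serum. CHMmTAM had been selected over 10 months up to 10 μM TAM, held at this concentration for 1 month and then cultured for 1 week without TAM. It is 1 resistant line, and no source used here states whether the replicates came from separate cultures, so p-values measure only the spread between these libraries, which may be technical.

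HOX genes encode transcription factors that set position along the body axis, and they lie in clusters called HOXA, HOXB, HOXC and HOXD. Each cluster carries miRNA genes between its protein-coding genes, and the mature miRNAs repress target mRNAs through base pairing of a short seed near their 5′ end. miR-10a and miR-10b are nearly identical mature miRNAs with a shared seed from different clusters, and miR-196a and miR-196b form a second such pair. miR-10b is known in breast cancer biology as a miRNA that TWIST1 can induce and that represses HOXD10, and miR-196 is known to repress HOXB8.

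RefSeq annotates, on the assembly UU_Cfam_GSD_1.0 (not the authors' build), 5 miRNA genes carry the names of the 4 members. MIR10A lies in HOXB, between HOXB4 and HOXB5 and within the annotated span of HOXB3. MIR10B lies in HOXD, between HOXD8 and HOXD3. MIR196B lies in HOXA, between HOXA9 and HOXA10. miR-196a has 2 genes. MIR196A-1 is in HOXB, between HOXB9 and HOXB13 and within the lncRNA LOC119873284, and MIR196A-2 is in HOXC, between HOXC10 and HOXC4. Neighbours named here are the protein-coding genes with the nearest annotated span on either side. Annotated spans can overlap, as those of HOXC4 and HOXC5 do at miR-615, so the neighbours do not give the full gene order. The table has 1 row for miR-196a, so its counts were not divided between HOXB and HOXC.

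The miR-10b primer of the study's qRT-PCR is shown because miR-10b carries the main difference, and it is the only sequence of a member in the sources used here. It has 23 bases and is written 5′ to 3′ as DNA, in lower case throughout because no part of it is singled out.
miR-10b primer: ccctgtagaaccgaatttgtgtg

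The libraries held between 7512659 and 12482211 counts. At these totals 3 counts correspond to 0.240 to 0.399 CPM, where CPM is the number of counts scaled to a common library total, and this limit takes only counting error into account. Within a line, each pair of libraries had a chi-square of 26.3 to 85.8 per degree of freedom, larger than sampling noise alone would give, and all libraries were kept as separate samples. The markers fixed for epithelial cells were all present in both lines (7 of 7 listed, summed level from 24457 to 26852 CPM in CHMm and from 21958 to 23739 CPM in CHMmTAM). By FDR alone, 3 of the 7 were higher in CHMmTAM (miR-200a, miR-200b and miR-429) and 2 were lower. The log2 fold changes of the lower ones were -0.24 for miR-203 and -0.66 for miR-205. Among all tested miRNAs, 44.0% passed FDR alone, so the count is not read as a result about epithelial cells.

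The difference between the lines lay mainly in the HOXD member. miR-10b rose in CHMmTAM, with 2.67 times its share of all counts in CHMm. The HOXA member miR-196b fell to 0.809 times its share, and miR-196a of HOXB and HOXC did not pass the test. miR-10a of HOXB had at most 24 counts in any library.

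cfa-miR-10b had 1421, 2390 and 1866 counts in CHMm replicates 1, 2 and 3, and 6440, 6343 and 4510 counts in CHMmTAM replicates 1, 2 and 3. After TMM normalisation its levels were 194, 206 and 209 CPM in CHMm and 504, 575 and 567 CPM in CHMmTAM. The lowest CHMmTAM library was thus above the highest CHMm library by more than the spread within either line. The means were 203 ± 7.56 CPM (SD, n = 3) and 549 ± 38.7 CPM (SD, n = 3), and the log2 fold change was 1.43 with a standard error of 0.07 (FDR = 1.37e-70, edgeR quasi-likelihood test with Benjamini-Hochberg adjustment over 284 miRNAs). Among the tested miRNAs, miR-10b ranked 90 by level in CHMm and 64 in CHMmTAM.

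**Figure D1:**
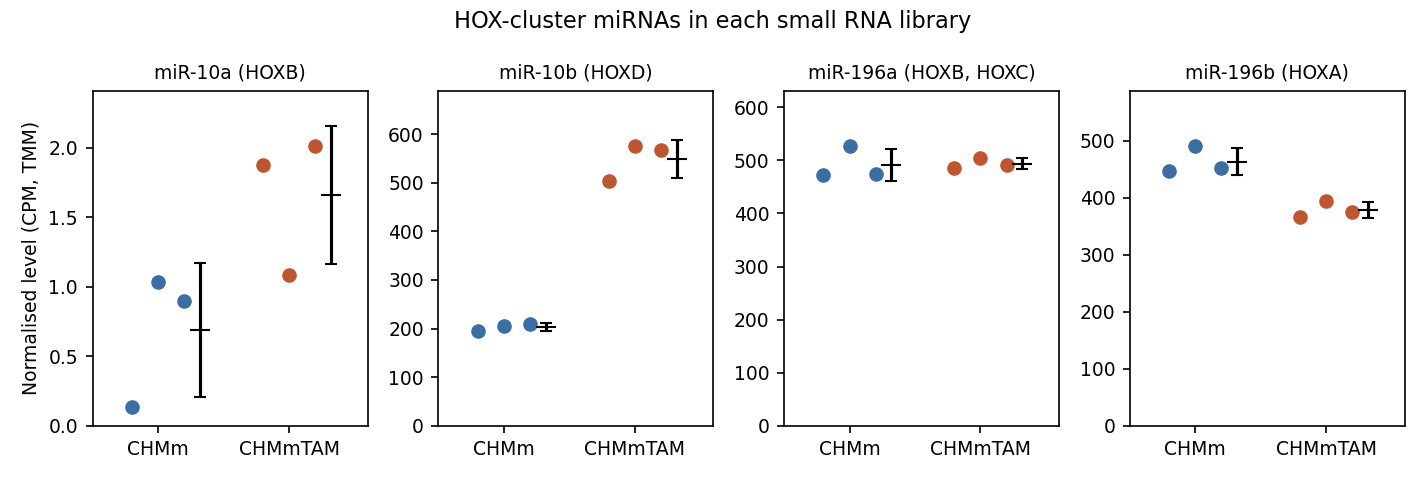
Normalised level (CPM with TMM factors, linear axis from 0) of each HOX-cluster miRNA in the 3 libraries of CHMm (blue) and of CHMmTAM (orange), in replicate order, with the mean and SD in black. miR-10b sits between 194 and 209 CPM in CHMm and between 504 and 575 CPM in CHMmTAM, and the lines overlap only for miR-196a.

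cfa-miR-196b had 3265, 5697 and 4051 counts in CHMm and 4680, 4344 and 2987 counts in CHMmTAM. Its normalised levels were 446, 490 and 453 CPM in CHMm and 366, 394 and 375 CPM in CHMmTAM, so every CHMmTAM library lay below every CHMm library. The means were 463 ± 23.8 CPM (SD, n = 3) and 378 ± 14.0 CPM (SD, n = 3). miR-196b fell by 0.29 on the log2 scale with a standard error of 0.07 (FDR = 0.00017, edgeR quasi-likelihood test), which passed the FDR threshold but not the 2-fold threshold of the study.

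cfa-miR-196a had 3458, 6116 and 4240 counts in CHMm and 6201, 5568 and 3917 counts in CHMmTAM. The normalised levels of 473, 527 and 474 CPM in CHMm enclosed those of CHMmTAM, which were 485, 505 and 492 CPM. The log2 fold change was 0.01 with a standard error of 0.07 (FDR = 0.96, edgeR quasi-likelihood test), and its sign depended on the scaling, from -0.23 to 0.01 over 5 scalings. Under upper-quartile factors miR-196a was lower in CHMmTAM with an FDR of 0.00403 from the same edgeR test.

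cfa-miR-10a was rare, with 1, 12 and 8 counts in CHMm and 24, 12 and 16 counts in CHMmTAM. These counts give 0.137, 1.03 and 0.894 CPM in CHMm and 1.88, 1.09 and 2.01 CPM in CHMmTAM after normalisation, with the lowest CHMmTAM library just above the highest CHMm library. The exact 95% Poisson intervals of that pair overlapped widely, from 0.542 to 1.83 CPM in CHMm replicate 2 and from 0.560 to 1.89 CPM in CHMmTAM replicate 2 (shares of all counts, counting error only). The log2 fold change was 1.12 with a standard error of 0.45 (FDR = 0.0302, edgeR quasi-likelihood test). The call was lost without CHMm replicate 1 (log2 fold change 0.75, FDR = 0.156), without CHMmTAM replicate 1 (1.00, FDR = 0.113) and without CHMmTAM replicate 3 (1.02, FDR = 0.0744) in the same edgeR test, and also under 4 of 8 other settings. Over all libraries of a line, 21 counts of miR-10a in CHMm stood against 52 in CHMmTAM, a ratio of shares of 2.17 with an exact 95% interval from 1.29 to 3.79 for counting error only.

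Of the 4 members, 2 passed both thresholds (FDR below 0.05 and at least a 2-fold change), namely miR-10b and miR-10a. Among the 284 tested miRNAs, 11.3% did. The study's own list at these thresholds held miR-10b as upregulated and did not hold miR-10a, whose call here was lost in several settings. The paper also reports RT-PCR of miRNAs from its list with results similar to its sequencing, and miR-10b is among its primers. With the FDR threshold alone 3 members passed, where 44.0% of all tested miRNAs did. The normalised values of the lines did not overlap for 3 members, where this held for 51.8% of all tested miRNAs. As so many miRNAs met these rules, the counts by FDR alone and by overlap are no result about the HOX-cluster miRNAs. Under upper-quartile factors the median change over the 284 miRNAs was -0.18 in log2 instead of 0.06. Relative to that median, miR-10b was at 1.37 under each of 5 scalings, miR-196b at -0.35, miR-196a at -0.05 and miR-10a between 1.06 and 1.07. A scaling moves all miRNAs by nearly the same amount, so values relative to the median could hardly differ between scalings.

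**Figure D2:**
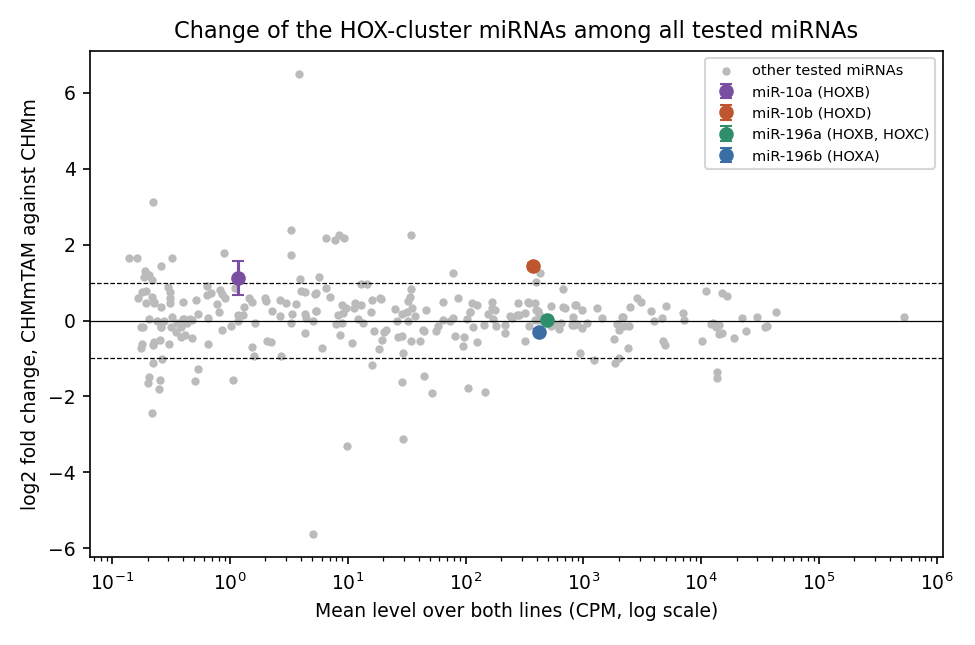
Log2 fold change of CHMmTAM against CHMm (vertical axis) by mean level over both lines in CPM (log axis) for the 284 tested miRNAs in grey and the 4 HOX-cluster miRNAs in colour, with bars of 1 standard error and dashed lines at the 2-fold threshold. miR-10b at 1.43 and miR-10a at 1.12 lie above the upper dashed line, miR-196a lies at 0.01 and miR-196b at -0.29.

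The order of the members differed between the lines. In CHMm it was miR-196a, miR-196b, miR-10b and miR-10a, with means of 491 ± 30.7, 463 ± 23.8, 203 ± 7.56 and 0.688 ± 0.482 CPM (SD, n = 3). The ranges of miR-196a and miR-196b overlapped over the libraries, although miR-196a was higher in each library. In CHMmTAM the order was miR-10b, miR-196a, miR-196b and miR-10a, with means of 549 ± 38.7, 494 ± 9.82, 378 ± 14.0 and 1.66 ± 0.499 CPM. There the ranges of miR-10b and miR-196a touched, from 504 to 575 CPM against 485 to 505 CPM. These levels are read counts per miRNA without a length correction, and mature miRNAs are of about equal length. The order is thus one of read counts, and whether it is also the order of the amounts in the cells was not tested. Together the members took 0.116% ± 0.00788 (SD, n = 3) of a CHMm library and 0.142% ± 0.00427 of a CHMmTAM library. Within this sum, miR-10b took 17.5% ± 0.776 in CHMm and 38.5% ± 1.23 in CHMmTAM.

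A ratio of 2 miRNAs within 1 library does not depend on the scaling, so all 6 pairs of members were compared in this way. Only the ratios of miR-10a to miR-10b and of miR-196b to miR-196a were planned, and the others were added after the data were seen. All ratios use the same counts as the fold changes above, so they are a second description and no further evidence. Any exact permutation test of 3 against 3 libraries cannot give a two-sided p below 0.1, and no ratio could pass 0.05. These are ratios of mature miRNAs, and the output of the HOX clusters was not tested. The ratio of miR-10b (HOXD) to miR-196a (HOXB and HOXC) was 0.411, 0.391 and 0.440 in CHMm and 1.04, 1.14 and 1.15 in CHMmTAM. The log2 ratio was 1.42 higher in CHMmTAM, against an SD between replicates of 0.0840 (exact two-sided permutation p = 0.1, adjusted p = 0.12 over 6 ratios). The ratio of miR-10b to miR-196b (HOXA) was 0.435, 0.420 and 0.461 in CHMm and 1.38, 1.46 and 1.51 in CHMmTAM. This was a difference of 1.72 in log2 with the same exact p.

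The miR-196 pair also shifted against each other. The ratio of miR-196b to miR-196a was 0.944, 0.931 and 0.955 in CHMm and 0.755, 0.780 and 0.763 in CHMmTAM. The lines did not overlap, and the log2 ratio fell by 0.30 against an SD between replicates of 0.0216 (exact two-sided permutation p = 0.1, adjusted p = 0.12 over 6 ratios). As a share of the pair, miR-196b took 48.6%, 48.2% and 48.9% in CHMm, with exact 95% intervals that began no lower than 47.3%. In CHMmTAM it took 43.0%, 43.8% and 43.3%, with intervals that ended no higher than 44.8%. With the pair summed to 1 row, the log2 fold change was -0.13 with a standard error of 0.07 and did not pass (FDR = 0.113, edgeR quasi-likelihood test).

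For the miR-10 pair the ratio rested on few counts. miR-10a took 0.0703%, 0.500% and 0.427% of the pair's counts in CHMm and 0.371%, 0.189% and 0.354% in CHMmTAM, with the lines overlapping. The log2 ratio of miR-10a to miR-10b differed by 0.24, within the SD between replicates of 1.18 (exact two-sided permutation p = 1). This value depended on CHMm replicate 1, which had 1 count of miR-10a. Without it the difference was -0.67, and both other CHMm shares were above those of all 3 CHMmTAM libraries. The sources used here do not state how reads that match near-identical miRNAs were counted, so the few counts of miR-10a are uncertain, and whether they include reads of miR-10b was not tested. With the pair summed, the log2 fold change was 1.43 with a standard error of 0.07 (FDR = 5.68e-71, edgeR quasi-likelihood test). The ratios of miR-10a to miR-196a and to miR-196b were higher in CHMmTAM by 1.66 and 1.97 in log2, with SDs between replicates of 1.17 and 1.18 and the same exact p of 0.1. Without CHMm replicate 1 these differences were 0.75 and 1.05.

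**Figure D3:**
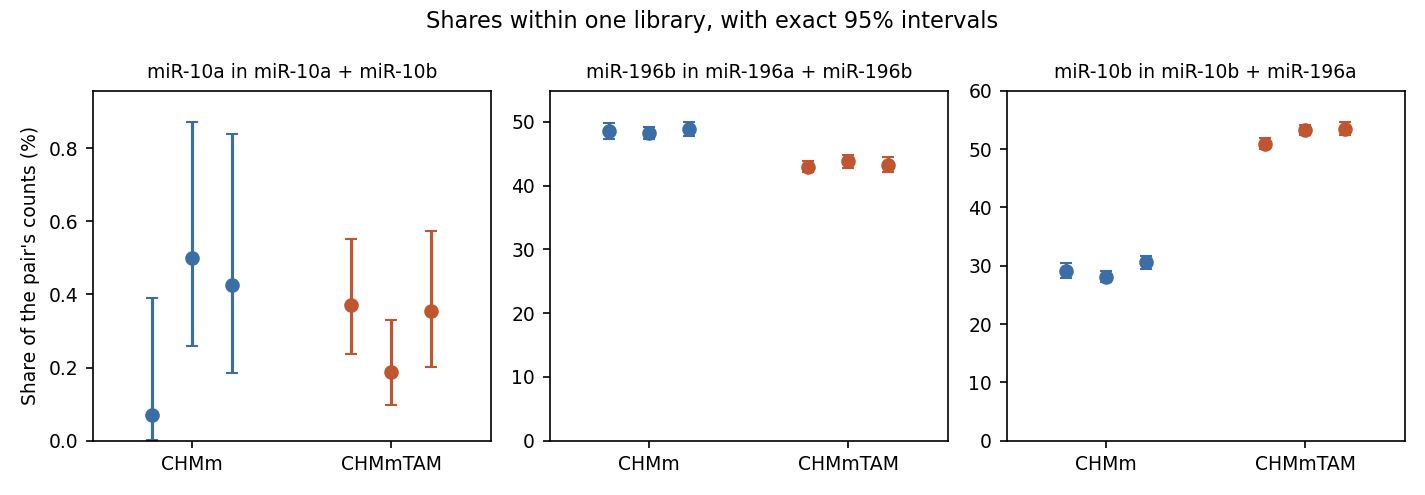
Share of the first miRNA in the counts of a pair (percent, linear axes from 0) in each library of CHMm (blue) and CHMmTAM (orange), with exact 95% binomial intervals. miR-10a stays below 0.6% of the miR-10 pair in every library, miR-196b lies near 48% in CHMm and 43% in CHMmTAM, and miR-10b goes from below 31% to above 50% of the pair with miR-196a.

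Another miRNA of the HOXC cluster, miR-615, lies within the spans of HOXC4 and HOXC5 in RefSeq and was the only other listed entry of 12 HOX-cluster names. Its CHMm libraries held 41, 60 and 42 counts and its CHMmTAM libraries held 81, 46 and 35. Its log2 fold change was -0.02 with a standard error of 0.21 (FDR = 0.969, edgeR quasi-likelihood test), and the lines overlapped.

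Relatives by sequence were described from fixed lists. miR-99a and miR-99b resemble miR-10 in sequence, and 2 of 3 names on that list were tested. miR-99b was lower in CHMmTAM by the FDR threshold (log2 fold change -0.99, standard error 0.07), just short of the 2-fold threshold. The study's own list at both thresholds held miR-99b as downregulated. miR-99a was at -0.13 without passing, so neither of the 2 rose with miR-10b. The let-7 miRNAs and miR-98 carry a seed that resembles that of miR-196 with a shift. Of 8 tested, 1 rose and 4 fell by FDR alone, where 44.0% of all tested miRNAs passed, and let-7e, which was lower, also passed the 2-fold threshold, where 11.3% of all did. The median log2 fold change of the 8 was -0.06 against 0.06 for all tested miRNAs. The list left out let-7d, which was tested and was at 0.17 without passing (FDR = 0.0692, edgeR quasi-likelihood test). The median is thus that of an incomplete list, and its sign is not read as a result.

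The profiles most like each member were named by the distance between log2 CPM values over the 6 libraries, each centred on its own mean, among 156 other miRNAs of at least 10 CPM. Nearest to miR-10b were miR-181a, miR-187, miR-140, miR-181b and miR-1843, at distances of 0.272, 0.275, 0.528, 0.749 and 0.775. Their log2 fold changes were 1.26, 1.24, 1.02, 0.84 and 0.96, all below the 1.43 of miR-10b. By comparison, miR-196a stood at rank 78 and miR-196b at rank 120 from miR-10b. Nearest to miR-196b were miR-203, let-7c, miR-1306, miR-362 and miR-450a, at distances of 0.146 to 0.200. Nearest to miR-196a were miR-374b, miR-200c, miR-320, miR-25 and miR-652, at distances of 0.115 to 0.140. The miR-196 pair was not closest to each other, since miR-196a ranked 47 from miR-196b and miR-196b ranked 65 from miR-196a. These ranks describe 6 libraries of 2 lines, so they mostly order miRNAs by their difference between the lines.

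Markers of other cell types were counted in the same way, beside 44.0% of all tested miRNAs that passed FDR alone and 11.3% that passed both thresholds. Of 8 miRNAs of skeletal and heart muscle, 5 were tested, all 5 were higher by FDR and 4 of them also by the 2-fold threshold. Their summed level was 284 to 309 CPM in CHMm and 430 to 442 CPM in CHMmTAM, most of it from miR-499, which was at 283 ± 20.6 and 395 ± 6.16 CPM (SD, n = 3). The 4 past both thresholds were miR-1, miR-133a, miR-133b and miR-133c, with log2 fold changes of 2.19, 2.11, 1.79 and 2.26. Their mean levels in CHMmTAM were 15.2, 12.8, 1.40 and 13.8 CPM. Of the muscle miRNAs not tested, miR-208a had no count in any library, and miR-206 and miR-208b had at most 3. Of 6 blood miRNAs, 4 were tested, 2 were higher by FDR and 1 of these, miR-486, by both thresholds, with a sum of 4.99 to 6.12 CPM in CHMm and 12.2 to 15.0 CPM in CHMmTAM. The fibroblast and smooth muscle list had 1 of 4 tested miRNAs lower by FDR and a sum of 38.6 to 48.3 CPM in CHMm and 23.8 to 28.1 CPM in CHMmTAM. The endothelial marker miR-126 had no count in CHMm and 1, 3 and 1 counts in CHMmTAM. The part of other cells in the level of miR-10b was not tested, and a different amount per cell cannot be told apart from a different mix of cells.

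**Figure D4:**
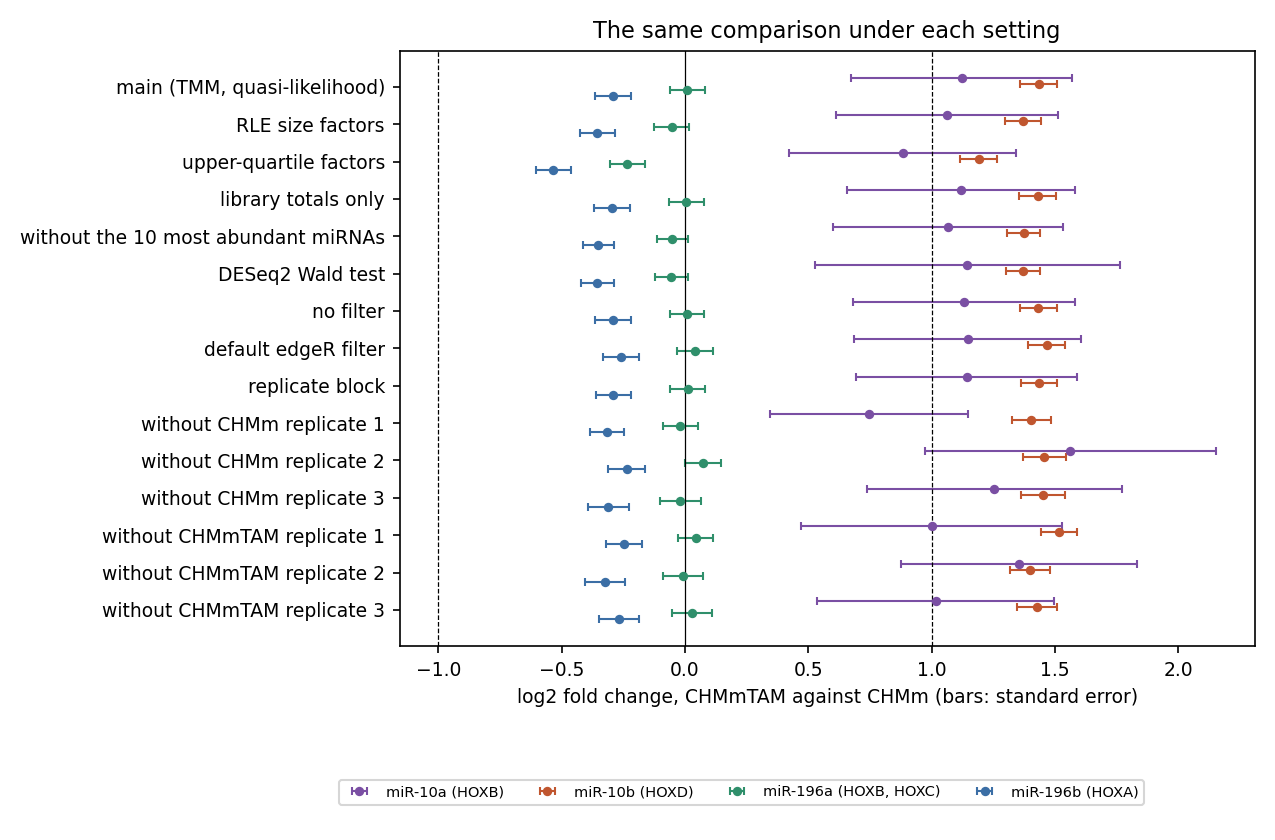
Log2 fold change of CHMmTAM against CHMm with 1 standard error (horizontal axis) for the 4 HOX-cluster miRNAs under the main comparison and each alternative setting, with dashed lines at the 2-fold threshold. miR-10b stays between 1.19 and 1.51 and beyond the threshold, miR-196b stays below 0, miR-196a lies on either side of 0, and miR-10a crosses the threshold.

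miR-10b kept both thresholds and miR-196b kept the FDR threshold in all 14 alternative settings run.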

How the data were processed

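Small RNA was sequenced in 3 libraries each of CHMm and CHMmTAM. Raw, unnormalized counts of reads for each canine miRNA were deposited by the authors, from total RNA enriched for miRNA and run on a HiSeq instrument. The submitters' processing notes name HISAT2 2.0.4, BWA and the build CanFam3.1. The miRNA database, trimming and the counting of reads that match several miRNAs are not given in the sources used here, and they could move counts within the miR-10 and miR-196 pairs. The RNA-seq libraries were not analysed here.

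Lines and replicate numbers were taken from the sample titles. miRNAs whose counts over the 6 libraries summed to 10 or more were compared with edgeR 4.0.16 (R 4.3.3), using TMM factors and the quasi-likelihood test without a block, and 284 miRNAs were tested with Benjamini-Hochberg adjustment (FDR). The thresholds were those of the study, FDR below 0.05 with a change of over 1 in either direction on the log2 scale. The standard error is the coefficient's size divided by the root of its F statistic. Ratios, intervals and profile distances used Python 3.11.15 with SciPy 1.17.1. Log2 CPM values used a prior count of 2. The fit was tested on simulated data, where 94.4% of 60 miRNAs changed by 2 on the log2 scale were recovered. The share was 99.6% among the changed miRNAs over 1 CPM, and each simulation gave 0.4 false calls on average. Smaller changes, such as those of miR-10b, miR-10a and miR-196b, were not simulated, so these shares do not apply to them. All simulated miRNAs had the same spread between replicates, set near the common value estimated from these data. A spread that differs between miRNAs was not simulated, so the shares hold for that setting only.

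Alternatives were RLE and upper-quartile factors, library totals, scaling without the 10 most abundant miRNAs, DESeq2 1.42.0, no filter, the default edgeR filter, a replicate block, pair sums, and each library left out. The miRNAs named are the 4 members, fixed lists of HOX-cluster miRNAs, relatives, metastasis-associated miRNAs and cell markers, and the 5 nearest profiles of each member with at least 10 counts in every library. Members and lists were chosen with earlier results of these data known, and 4 of the 6 ratios were added after the data were seen. A comparison with other pairs that differ by 1 base was not made, since mature sequences were not analysed here. Gene names and neighbours are from RefSeq (UU_Cfam_GSD_1.0), where all 4 members were matched, and its coordinates are not given because the build differs.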

Additional observations from a re-analysis of the deposited data

How the results depend on the processing

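For miR-10a the log2 fold change lost the FDR threshold with DESeq2's Wald test (1.14), with upper-quartile factors (0.88), with totals as the only scaling (1.12) and when the 10 most abundant miRNAs were left out of the scaling (1.07), with FDRs from 0.0511 to 0.108, and ranged from 0.75 to 1.56 without 1 library. miR-196a changed sign with DESeq2 (-0.055), RLE factors (-0.055), upper-quartile factors (-0.23) and scaling that left out the 10 most abundant miRNAs (-0.051), and ranged from -0.020 to 0.074 without 1 library. Without 1 library, miR-10b ranged from 1.40 to 1.51 and miR-196b from -0.32 to -0.24. The FDR of miR-10b ran from 3.15e-86 with DESeq2's Wald test to 4.27e-09 in the edgeR test without CHMm replicate 1. The size of that FDR thus depended strongly on the setting, at similar fold changes. The difference in the log2 ratio of miR-10a to miR-10b ranged from -0.67 to 0.75, that of miR-196b to miR-196a from -0.31 to -0.29, that of miR-10a to miR-196a from 0.75 to 2.13, and that of miR-10a to miR-196b from 1.05 to 2.44. The ratio of miR-10b to miR-196a ranged from 1.38 to 1.47 and that to miR-196b from 1.69 to 1.76. The causes were not tested. The 32 miRNAs past both thresholds were 17 higher and 15 lower, against 12 higher and 22 lower under upper-quartile factors, and the 125 past FDR alone were 72 higher and 53 lower, against 41 and 100. With the replicate number as a block, the log2 fold changes of miR-10a, miR-10b, miR-196a and miR-196b were 1.14, 1.43, 0.01 and -0.29, those of the summed pairs 1.43 and -0.13, and 31 and 126 miRNAs passed, with no call of a member changed. Same-numbered libraries had correlations of 0.06, 0.46 and -0.31 in their deviations over 117 miRNAs, so the numbers were not taken as pairs. Depth limits the statements on miR-10a, which had between 1 and 24 counts per library.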

Other observations

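Other miRNAs are discussed beside miR-10b as promoters of metastasis. Of 7 names fixed, 5 were tested and none passed both thresholds, where 11.3% of all tested miRNAs did, while 2 were higher and 1 lower by FDR alone in edgeR's quasi-likelihood test, where 44.0% of all did. miR-103 had 2267 ± 29.0 CPM (SD, n = 3) in CHMm and rose to 3442 ± 268 CPM in CHMmTAM, and miR-107 rose from 94.9 ± 2.17 to 132 ± 7.06 CPM. miR-155 fell from 2957 ± 122 to 1787 ± 62.5 CPM. The log2 fold changes of miR-21 and miR-9 were 0.09 and -0.06 and did not pass.

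Of 4 neural miRNAs, 3 were tested, with miR-128 lower by FDR (log2 fold change -0.86) and miR-129 higher by both thresholds on at most 6 counts per library, and miR-124 had 1 count over all 6 libraries. The liver miRNA miR-122 had a log2 fold change of 0.47 and did not pass.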
